A study of Drosophila melanogaster with 12 samples.

Results

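Divergent promoter pairs are neighbouring protein-coding genes that point away from each other, with the gene on the minus strand to the left and the most upstream starts at most 500 bp apart, and with no overlap between the genes. In the Ensembl BDGP6.54 annotation 1682 such pairs were found. Their 3364 genes make up 24.1% of the 13968 protein-coding genes on the 7 main chromosome arms and chromosomes (2L, 2R, 3L, 3R, 4, X, Y). A pair is written here as the left gene, a slash and the right gene. The gap between the starts had a median of 245 bp, and the pairs were spread over the main arms, where 21.8% to 25.8% of the genes belonged to one, against 12.5% on chromosome 4 and none on Y. Of the pairs, 42 were His2A/His2B or His3/His4 units of the repeated histone cluster on 2L, 24 lay inside another gene, and 466 held a gene shorter than 1 kb.

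The study mapped RNA polymerase II phosphorylated on Serine 5 (Pol II S5) by chromatin immunoprecipitation and sequencing in Kc167 cells, a cultured Drosophila melanogaster line of embryonic origin. All cells were nucleofected and collected 3 days later. The mock group received no RNA, the AGO2 knock-down group (AGO2 KD) received a small interfering RNA against AGO2, and the LaminB knock-down group (LaminB KD) received a double-stranded RNA against LaminB, with 2 replicates in each group and an input for every library. What was analysed is the list of broad Pol II S5 regions of each library, called against its own input. The read depth is unknown from such lists, and the labels do not say whether replicates were separate cultures, so that any spread between them may be technical.

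In Drosophila, a compact genome, many housekeeping genes share a short stretch of promoter DNA with a neighbour that is read in the other direction. Polymerase is phosphorylated on Serine 5 as it starts a transcript and pauses just downstream, and the mark is therefore found mainly over the beginning of transcribed genes. AGO2 is the Argonaute protein of the small interfering RNA pathway and is also found on fly chromatin, and LaminB, the product of Lam, is a main component of the nuclear lamina. Promoters of fly housekeeping genes often carry the DNA replication-related element (DRE, bound by DREF), CGATA letters that occur in sites of the insulator protein BEAF-32, or the core of motif 1 (bound by M1BP), whereas TATA boxes are typical of genes with restricted expression.

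The gaps that the results turn on are printed from the dm6 genome, plus strand, with matches to 6 motifs in capitals. The DRE was searched as TATCGATA on both strands, like all motifs. The letters of the BEAF-32 site, CGATA, are contained in the DRE. The TATA box was searched as TATAAA, the site of GAGA factor as GAGAG and the E-box as CAGCTG. The core of motif 1 was searched as GGTCACAC. Adjoining capitals can belong to more than one overlapping match. Outside the gap the left gene runs to the left and the right gene to the right. The first 3 are gaps whose genes were both covered by peaks in every library. They belong to a pair of mitochondrial proteins, to the pair that holds the gene of DREF itself, and to the pair that holds Lam, the target of one knock-down.
mRpL55/ATPsynD, chr3R:19094906-19094999: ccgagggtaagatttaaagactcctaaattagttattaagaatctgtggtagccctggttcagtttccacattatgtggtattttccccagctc
Dref/RpL13, chr2L:9967230-9967312: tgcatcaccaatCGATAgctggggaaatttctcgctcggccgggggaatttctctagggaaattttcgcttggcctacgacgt
Hel25E/Lam, chr2L:5542315-5542479: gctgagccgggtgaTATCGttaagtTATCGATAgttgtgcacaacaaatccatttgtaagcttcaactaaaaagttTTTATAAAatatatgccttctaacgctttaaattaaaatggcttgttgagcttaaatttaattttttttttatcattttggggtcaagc
The next 3 are gaps at which a single gene was covered in every library, namely Rab6, RpS21 and Rpt2.
Rab6/Phae1, chr2L:12109117-12109416: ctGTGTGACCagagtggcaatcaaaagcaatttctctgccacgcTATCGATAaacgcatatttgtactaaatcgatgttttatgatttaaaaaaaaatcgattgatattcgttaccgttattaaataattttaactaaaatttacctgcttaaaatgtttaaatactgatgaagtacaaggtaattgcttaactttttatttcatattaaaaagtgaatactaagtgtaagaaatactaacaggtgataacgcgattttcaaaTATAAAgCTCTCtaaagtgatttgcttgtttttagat
CG3104/RpS21, chr2L:2855779-2856069: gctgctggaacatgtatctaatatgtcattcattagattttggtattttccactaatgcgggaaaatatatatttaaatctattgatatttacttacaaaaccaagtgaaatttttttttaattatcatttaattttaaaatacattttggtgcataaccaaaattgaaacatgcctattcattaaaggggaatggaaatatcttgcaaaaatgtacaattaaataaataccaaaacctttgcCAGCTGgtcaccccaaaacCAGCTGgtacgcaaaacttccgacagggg
Rpt2/CG13599, chr3R:23931559-23931638: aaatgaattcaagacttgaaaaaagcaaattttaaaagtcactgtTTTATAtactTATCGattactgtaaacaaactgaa
The following 2 lay wholly under peaks in the mock libraries and at most partly in the AGO2 KD libraries, and the one after them lay wholly under peaks in the mock libraries and hardly at all in the LaminB KD libraries.
Tsf2/CG34242, chr3L:12533725-12533995: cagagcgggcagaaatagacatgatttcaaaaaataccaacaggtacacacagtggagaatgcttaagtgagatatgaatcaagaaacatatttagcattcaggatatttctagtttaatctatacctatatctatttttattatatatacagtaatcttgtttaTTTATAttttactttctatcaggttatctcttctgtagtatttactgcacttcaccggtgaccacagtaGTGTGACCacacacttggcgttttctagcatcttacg
CG9393/Vps45, chr3R:9563674-9563923: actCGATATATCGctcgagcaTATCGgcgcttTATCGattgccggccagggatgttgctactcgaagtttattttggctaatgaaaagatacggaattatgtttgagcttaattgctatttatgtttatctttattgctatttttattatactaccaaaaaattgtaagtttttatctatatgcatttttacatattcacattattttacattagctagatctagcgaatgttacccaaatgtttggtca
Polr3D/mus304, chr3L:18109575-18109813: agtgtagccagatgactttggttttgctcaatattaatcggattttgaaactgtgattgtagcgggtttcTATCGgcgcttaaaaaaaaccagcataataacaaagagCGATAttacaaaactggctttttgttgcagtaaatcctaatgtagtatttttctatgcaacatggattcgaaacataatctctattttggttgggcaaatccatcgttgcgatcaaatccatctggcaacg
The last gap belongs to a pair without a base under a peak in any library.
Eig71Ea/Eig71Eb, chr3L:15649662-15649935: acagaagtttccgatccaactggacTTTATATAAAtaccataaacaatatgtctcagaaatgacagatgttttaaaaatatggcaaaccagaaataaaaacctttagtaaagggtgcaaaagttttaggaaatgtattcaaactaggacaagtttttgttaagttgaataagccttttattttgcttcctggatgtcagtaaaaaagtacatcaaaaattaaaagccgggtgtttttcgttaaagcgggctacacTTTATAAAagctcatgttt
In the Hel25E/Lam gap a DRE lay 26 bases from the start of Hel25E and 133 bases from the start of Lam. The Rab6/Phae1 gap held a DRE 45 bases from the start of Rab6, the covered gene, motif 1 letters 3 bases from that start, and TATAAA on the strand of Phae1, 32 bases before its start. The Eig71Ea/Eig71Eb gap had TATAAA on the strand of each gene, 26 bases before Eig71Ea and 12 bases before Eig71Eb. The Dref/RpL13 gap had CGATA and no DRE. These are matches of letters and not mapped binding sites.

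Counted over promoters of 300 bp (250 before to 50 after the start), a DRE was found in 18.2% of the promoters of pair genes, against 9.36% of all protein-coding promoters. The motif 1 core was found in 15.5% against 7.69%, CGATA in 63.2% against 47.3%, and CAGCTG in 24.6% against 17.6%. GAGAG was the motif found less often in pair genes, in 22.2% against 29.7%, and TATAAA anywhere in the promoter differed little, at 49% and 45.8%. When TATAAA was required on the strand of the gene, starting 20 to 45 bases before the start, it was found in 4.93% of pair genes and 8.81% of all genes. With the exception of CAGCTG, the shares were similar in other covered genes. Among 1114 other protein-coding genes with at least 50% of the first 1 kb covered in all 6 libraries, the DRE was found in 18.7%, the motif 1 core in 16.8%, CGATA in 61.9% and GAGAG in 24.1%, and TATAAA at 20 to 45 bases before the start in 3.86%, while CAGCTG was found in 14.0%. The promoters of a pair overlap each other in DNA, so a single match can be counted for both genes.

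Pair starts were covered by Pol II S5 peaks far more often than other starts. The start window of a gene is its first 1 kb, or the whole gene where it is shorter, and its covered share is the percentage of the window under peaks. Over the pair genes the mean covered share was 54.9% and 62.1% in mock replicates 1 and 2, 41.1% and 52.9% in the AGO2 KD replicates, and 70.3% and 32.4% in the LaminB KD replicates. The corresponding shares of the 10515 other protein-coding genes were 23.0% and 26.2%, 17.7% and 22.0%, and 30.8% and 13.9%. Pair genes were higher in 6 of 6 libraries, by 30.0 ± 7.82 percentage points (SD, n = 6; p = 0.03125 in an exact two-sided sign-flip permutation test, the smallest that 6 libraries allow, and the same after Benjamini-Hochberg adjustment over 3 tests). With lists cut, from the strongest q-value down, to the covered length of the shortest list, the difference was 13.4 points. The ratio of both shares stayed between 2.28 and 2.40 while the shares themselves moved with the library. The gap between the starts was covered more than the windows beside it, at 68.2% and 71.2% in the mock libraries, 58.0% and 63.3% in the AGO2 KD libraries, and 74.5% and 42.1% in the LaminB KD libraries.

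**Figure D1:**
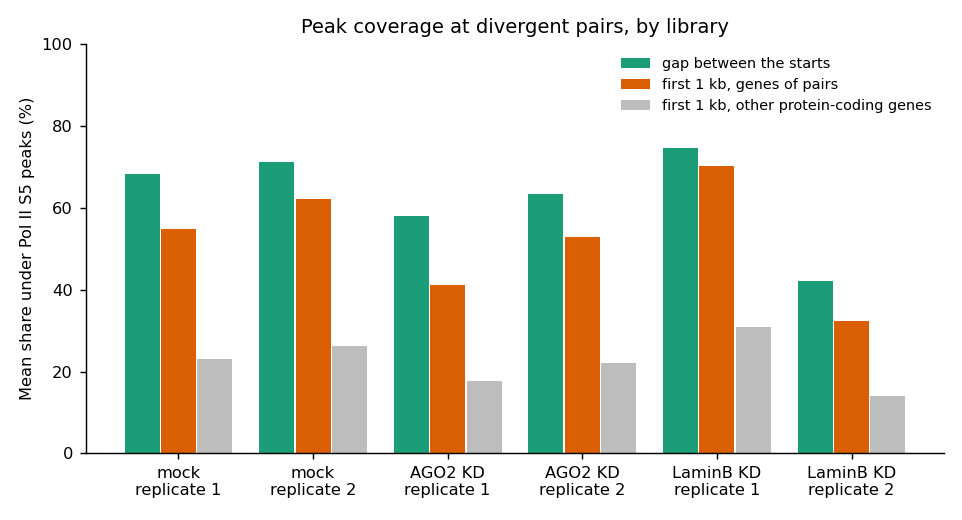
Mean share under Pol II S5 peaks (y axis, %) in each of the 6 libraries (x axis) for the gap of divergent pairs, the first 1 kb of their genes, and the first 1 kb of other protein-coding genes; bars are means over regions of a single library. The gap is the most covered in each library, and pair genes lie at 32.4% to 70.3% against 13.9% to 30.8% for other genes.

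The libraries differed in how much was called. They held 5108 to 8541 peaks over 4.19 to 14.6 Mb, with LaminB KD replicate 1 at the top and LaminB KD replicate 2 at the bottom of both ranges. Peaks that touched a pair made up 16.0% to 25.2% of the peaks of a library but 37.5% to 38.5% of the length under peaks. They were wide, with a median of 966.5 to 3323 bp against 463 to 1133.5 bp for other peaks over a gene start, while their median fold over the local background was slightly lower in all 6 libraries. Of 8 listed genes of hemocytes, the blood cells that Kc167 cells resemble, 5 to 8 had a peak of any length in the first 1 kb. The covered share was 90.3% to 100% for Pxn, 44.0% to 59.7% for Nplp2 and 28.8% to 50.6% for vkg. It was at most 36.1% for Col4a1, 25.8% for srp, 24.7% for Ppn, 22.2% for crq and 20.9% for Hml. Of 11 genes of neurons, muscle, germline and fat body, elav had a peak in 5 libraries and Mef2 in 6, and the others none. The covered share was 63.3% to 90.2% for elav in those 5 and 24.1% to 72.8% for Mef2, above that of most listed hemocyte genes.

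Around the starts of pair genes, coverage had 2 maxima, one just inside the gene and one over the neighbour, with a shallow dip between them. At 100 to 150 bp into the gene 49.9% to 77.0% of pair genes lay under a peak, and 22.7% to 36.6% of other genes. At 1000 bp upstream the corresponding ranges were 21.6% to 64.8% and 7.18% to 19.4%. For a pair gene, upstream positions beyond the gap run into the neighbouring gene. At 3000 bp into the gene 10.7% to 39.3% of pair genes and 5.78% to 20.2% of other genes were covered. A single peak usually stretched over both starts. That was so in 64.7% and 67.8% of the pairs in mock, in 54.9% and 60.1% under AGO2 KD, and in 71.6% and 39.6% under LaminB KD.

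**Figure D2:**
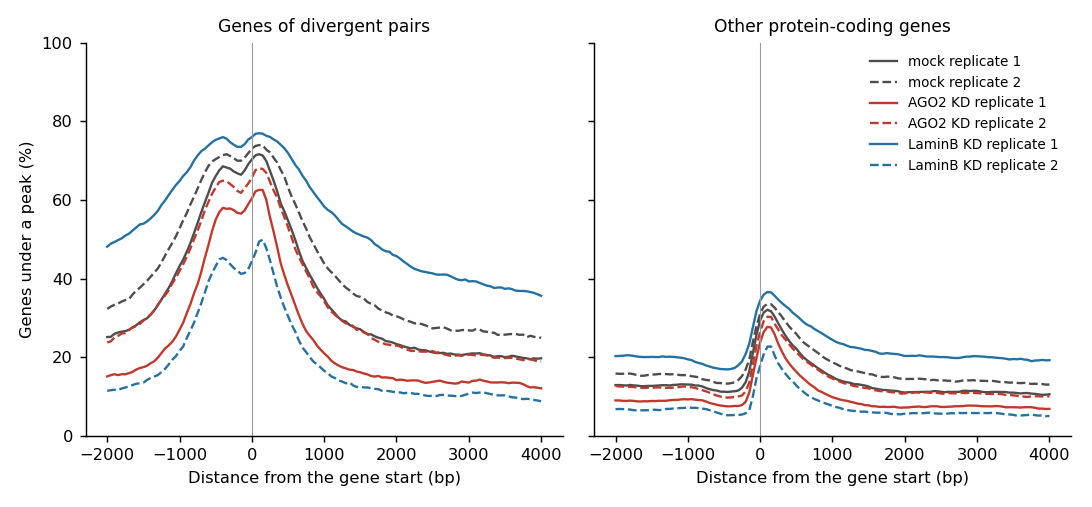
Percentage of genes under a Pol II S5 peak (y axis) at each distance from the gene start in bp (x axis, gene to the right of 0), for genes of divergent pairs and for other protein-coding genes, with 1 line per library. All libraries peak at 100 to 150 bp into the gene, at 49.9% to 77.0% for pair genes and 22.7% to 36.6% for other genes, and pair genes show a broad shoulder upstream.

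A pair was called symmetric when both start windows were covered at 50% or more, and one-sided when only 1 of them was. Symmetric pairs made up 35.9% and 47.1% of the 1682 pairs in the mock libraries, 18.6% and 33.4% in the AGO2 KD libraries, and 59.4% and 11.5% in the LaminB KD libraries. One-sided pairs made up 36.6% and 31.7%, 38.3% and 38.0%, and 24.6% and 34.4%, in the same order. The share of one-sided pairs thus moved within a narrower range than that of symmetric ones. Among pairs in which both genes reached 1 kb, the covered shares of both windows differed by a mean of 26.0 to 35.3 points. Among such divergent neighbours with starts 501 to 2000 bp apart, the mean difference was 29.4 to 36.9 points. It was below that of the pairs in AGO2 KD replicate 1 and LaminB KD replicate 2, and above it in the other libraries.

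**Figure D3:**
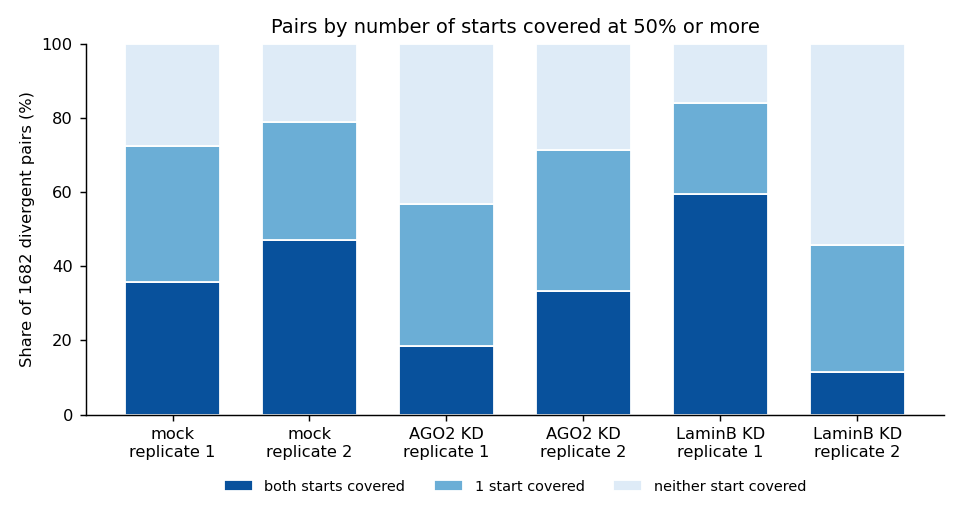
Share of the 1682 divergent pairs (y axis, %) with both, 1 or neither start covered at 50% or more in each of the 6 libraries (x axis). Pairs with both starts covered range from 11.5% in LaminB KD replicate 2 to 59.4% in LaminB KD replicate 1, and pairs with 1 start covered from 24.6% to 38.3%.

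The distance between the starts was compared with coverage up to 2000 bp. On the mean of 6 libraries, at least 1 start was covered in 76.8% of pairs with starts 1 to 100 bp apart and in 64.1% to 70.4% of those 101 to 500 bp apart. Beyond the limit, in 858 wide pairs chosen by the same rule, it was 54.8% at 501 to 1000 bp and 31.3% at 1001 to 2000 bp. Among covered pairs, the symmetric share was 51.4% at 1 to 100 bp, 40.6% at 401 to 500 bp, 35.1% at 501 to 1000 bp and 23.5% at 1001 to 2000 bp. Divergent pairs exceeded wide pairs in this share in 6 of 6 libraries, by 15.3 ± 7.97 points (SD, n = 6; p = 0.03125, exact two-sided sign-flip permutation test, 0.03125 after adjustment over 3 tests). The difference was 9.01 points with windows called at 80% and 27.8 points from a single covered base. Windows of close pairs are reached by the same peak more easily than those of wide pairs, and the part of this was not tested. In 94.3% to 98.5% of the symmetric divergent pairs of a library, a single peak lay over both starts. At the limit itself, start coverage was somewhat lower beyond than within it in every library. The 106 pairs with starts 450 to 500 bp apart had 37.1% to 70.9% of their start windows covered, and the 98 neighbours at 501 to 550 bp had 33.3% to 64.5%. The share with at least 1 covered start was also lower beyond the limit in every library. The symmetric share was lower there in some libraries and higher in others.

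**Figure D4:**
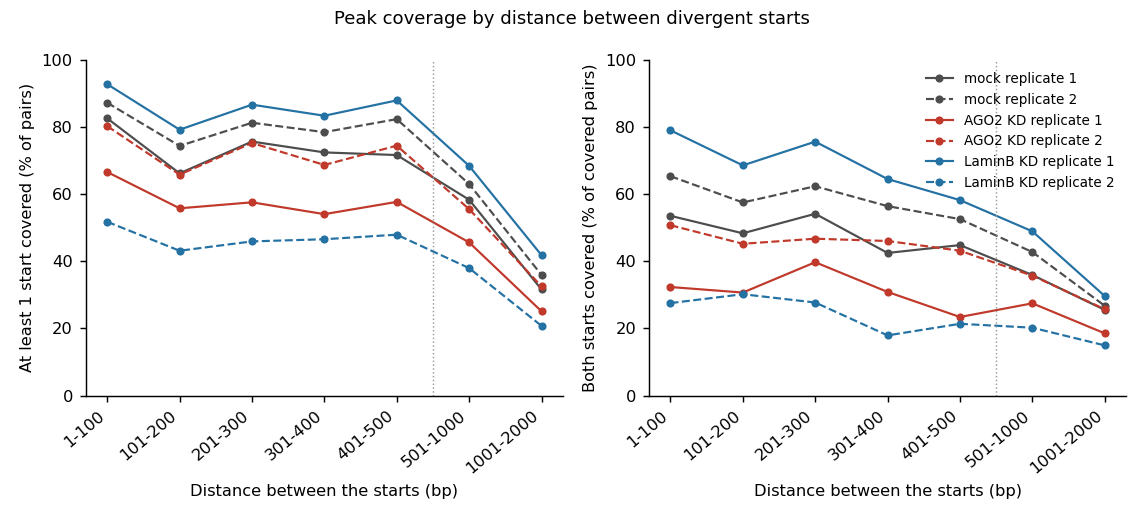
Percentage of divergent neighbours with at least 1 start covered (left) and, among these, with both covered (right), by distance between the starts in bp (x axis); 1 line per library, and the dotted line marks the 500 bp limit of the pairs. Both shares fall with distance in every library from the closest to the widest bin, from a mean of 76.8% to 31.3% (left) and of 51.4% to 23.5% (right).

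There were 166 pairs that were symmetric in all 6 libraries, and 28 in which every base of the gap and both windows lay under peaks in all 6. By the rule for named pairs, fully covered examples were CG12929/RpL31 and mRpS16/cg (ribosomal proteins of the cytosol and of the mitochondrion, the latter beside the zinc finger gene combgap), Prosbeta4/Nubp1 (a proteasome subunit and an iron-sulphur cluster assembly factor) and mRpL55/ATPsynD (a mitochondrial ribosomal protein and a subunit of ATP synthase). Each of these had 100% of the gap and of both windows covered in all 6 libraries. The symmetric pairs named next were chosen after their values were seen. In Hel25E/Lam (a helicase of mRNA export, and lamin) every library had 100% of all 3 parts covered, except for 97.7% of the Lam window in LaminB KD replicate 2. Dref/RpL13 had 100% of all parts covered in every library, except for 71.2% of the Dref window in LaminB KD replicate 2. Cp190/CG4338 (Cp190 encodes an insulator protein) was covered throughout, except for 65.8% of the CG4338 window in LaminB KD replicate 2. LaminB KD replicate 2, which held the fewest peaks, was thus the lowest library in each of these exceptions. CG3198/Mcm6 (Mcm6 is part of the replicative helicase) and RpL18/Neos were covered at 100% in all libraries. The peak at Lam shows polymerase on the gene and not the level of its mRNA, which these lists do not measure, and AGO2 lies in no divergent pair.

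Where a pair was one-sided in 2 or more libraries, the covered gene was mostly the same in those libraries. Of 885 pairs that were one-sided in 2 or more libraries, 853 were covered at the same gene each time and 32 were not. In 117 pairs the same gene was covered in all 6 libraries, 61 times the left and 56 times the right one. The mean covered share of the covered window in these was 95.3% and 97% in mock, 89.2% and 94.2% under AGO2 KD and 97.8% and 83.7% under LaminB KD. That of the partner was 12.6% and 14.9%, 8.49% and 11.5%, and 18.5% and 4.94%. In 41 of the 117 pairs the partner window had no base under a peak in any library.

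In 9 pairs 100% of one window and 0% of the other were covered in all 6 libraries. The rule names 6, and since the 9 are tied, those are the first in genome order. CCT1/tHMG1, Gclm/CG17625 and CG15930/Sas10 are the others. In Rab6/Phae1, Rab6 (a small GTPase of Golgi traffic) was covered and Phae1 (a serine protease) was not, and the covered share of the gap was 25.3% and 39.3% in mock, 21.3% and 19.7% under AGO2 KD, and 31% and 11.7% under LaminB KD. In CG3104/RpS21 the ribosomal protein gene was the covered one, with 45% and 53.3% of the gap covered in mock, 44.0% and 44.3% under AGO2 KD, and 47.4% and 27.1% under LaminB KD. Rrp4/ItgaPS5 was covered at Rrp4, a subunit of the RNA exosome, and not at the integrin gene ItgaPS5, with 4.2% to 29.1% of the gap covered. CG17977/lig, CG33303/dpr19 and CG11885/CG13692 were covered at lig, CG33303 and CG11885. The gaps of the 6 pairs, between 291 and 454 bp, were longer than the median gap.

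Other one-sided pairs were chosen after their values were seen. SmD1 (a spliceosome core protein) was covered at 93.7% to 100% and its partner Ptp69D (a receptor tyrosine phosphatase of neurons) at 7.1% to 22.3%. Rpt2, a proteasome ATPase, was covered at 82.7% to 96.4%, and neither its gap of 80 bp nor the window of CG13599 had a base under a peak in any library. In crq/shv the hemocyte scavenger receptor gene crq was the less covered one, at 22.2% and 18.5% in mock, 7.3% and 6.2% under AGO2 KD, and 16.7% and 0% under LaminB KD, beside 100% of shv in each library.

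In one-sided pairs the shorter gene was the covered one somewhat more often. Among one-sided pairs with both genes of at least 1 kb, the longer gene was covered in 44.4% and 45.8% in mock, 47.7% and 43.7% under AGO2 KD, and 44.8% and 44.6% under LaminB KD. These shares were below 50% in 6 of 6 libraries, with a mean difference of -4.83 ± 1.43 points (SD, n = 6; p = 0.03125, exact two-sided sign-flip permutation test, 0.03125 after adjustment). The 6 libraries measured the same set of pairs, so this p-value does not cover the spread between pairs. The direction turned with windows of 500 bp, where the longer gene was covered in 1.41 points more than 50%, and when a single covered base was enough (4.30 points more). Among the 117 pairs one-sided in all libraries, 90 had both genes of at least 1 kb, and there the covered gene was the shorter in 56, with a median of 1842 bp against 3764 bp for the partner.

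In 262 pairs neither window was covered at 50% in any library, and 206 of these had no base under a peak at all. The histone repeats accounted for 41 of the 206. Only His2B:CG33868/His2A:CG33865 of the 42 histone pairs had any peak, over 36.3% to 41.8% of the His2B:CG33868 window in 4 libraries. Reads of 50 bases that fit several places were removed by the authors, and a median of 0% of the 50-base stretches in the histone pairs occurred once in the genome, with a highest value of 17.5%. Whether polymerase was present at the histone pairs was thus not measured by these lists. For the other 165 uncovered pairs the median was 100%, and 8 of them were under 50%, among them Prosalpha1/CG18853 with 2.01%. The uncovered pairs included genes with expression restricted to other tissues or stages, listed by symbol after the uncovered pairs had been seen. All 10 Eig71E genes in pairs (ecdysone-induced genes), all 6 odorant-binding protein genes, 7 of 8 gustatory receptor genes and all 4 male-specific transcript genes had no base of the start window under a peak in any library. Over 9 such families it was 42 of 43 genes, compared with 615 of all 3364 pair genes (18.3%). Promoters of the 220 pairs without a covered window, histone repeats left out, held a DRE in 7.95% and the motif 1 core in 2.95%, against 23.5% and 20.2% for the 166 symmetric pairs. TATAAA 20 to 45 bases before the start, as on the Eig71Ea side of the printed Eig71Ea/Eig71Eb gap, was found in 12% of the former and 0.904% of the latter.

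Genes of translation and respiration were frequent in divergent pairs. Of 73 mitochondrial ribosomal protein genes 51 were pair genes (69.9%), of 33 aminoacyl-tRNA synthetase genes 20 (60.6%), and of 79 genes of the transcription machinery 44 (55.7%), compared with 24.1% of all protein-coding genes. The share was 41.7% for the proteasome (20 of 48), 38.7% for cytoplasmic ribosomal proteins (36 of 93), 38.6% for translation initiation factors (17 of 44) and 36.4% for oxidative phosphorylation (32 of 88). The groups were defined by symbol and no test was run on them. On the mean over pairs, group genes were covered more than their partners in each of the 7 groups and in all 6 libraries. Single pairs often went the other way or were level. For the transcription machinery in LaminB KD replicate 1, the group gene was higher in 9 pairs and the partner in 9. For the cytoplasmic ribosomal proteins the mean covered share was 87.7% to 97.2% for the group genes and 52.8% to 91.0% for their partners. For oxidative phosphorylation it was 60.3% to 90.1% and 32.1% to 69.5%, for the aminoacyl-tRNA synthetases 53% to 96.1% and 27.6% to 76.2%, and for the mitochondrial ribosomal proteins 52.8% to 95.5% and 36.5% to 76.3%. The narrowest differences were those of the initiation factors, from 1.26 points, and of the transcription machinery, from 3.09 points. Group genes were often short, with 31 of the 51 mitochondrial ribosomal protein genes under 1 kb against 7 of their partners. With windows of 500 bp the mean of the group genes stayed above that of their partners in 6 of 6 libraries in 5 groups. The mean of the cytoplasmic ribosomal proteins was level with that of their partners in 1 library. That of the initiation factors was lower by 4.29 points in 1. In the first 1 kb, transcription machinery genes outside pairs had a higher mean covered share than those in pairs in all 6 libraries. The ranges were 49.7% to 91.4% outside pairs and 35.3% to 90.1% in pairs. Genes in pairs were higher in every library for the cytoplasmic ribosomal proteins, proteasome, oxidative phosphorylation and aminoacyl-tRNA synthetases. The order varied by library for the mitochondrial ribosomal proteins and the initiation factors.

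The most and the least covered pair of a group lay far apart. Among the transcription machinery, Polr3K/DMAP1 (a subunit of RNA polymerase III beside a chromatin regulator) had 100% of the gap and of Polr3K covered in all libraries and 54.4% to 100% of DMAP1. At the other end TfIIA-S-2/CG14631 had no base under a peak in any library, like gammaSnap2/ATPsynepsilonL and Tmlh/eIF3g2. RpS19b/CG5854 and mRpL24/betaggt-I were the least covered pairs of cytoplasmic and mitochondrial ribosomal proteins. RpS19b and mRpL24 themselves were at 0% in all libraries, while the partner CG5854 was covered at 100% in both mock libraries and betaggt-I (a prenyltransferase subunit) at 58.8% and 46.2%. AsnRS/DCTN6-p27 and Lfg/AspRS marked the ends among the synthetases. AsnRS was covered at 100% in all 6 libraries, and AspRS at 100% and 41.0% in mock, 24.3% and 26.6% under AGO2 KD, and 100% and 0% under LaminB KD.

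By deposited fold, the ratio of a broad region to the local background, the leading pairs were RpL19/CG3776, Aldh7A1/CG14085, Magi/CG9406 and ERp60/eEF1alpha1, with means of 6.57 to 6.75 over the 6 libraries. Fold and symmetry were different properties here. RpL19 was covered at 100% in all libraries and CG3776 at 32.9% to 56.6%. Aldh7A1 (an aldehyde dehydrogenase) was covered at 18.6% to 100%, and CG14085 at 0% in all 6. In ERp60/eEF1alpha1 the window of ERp60, a protein disulphide isomerase, was covered at 60.6% to 80.4%, and that of eEF1alpha1, the translation elongation factor, at 15.1% to 31.5%.

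Knock-down of AGO2 was compared with mock treatment to ask whether peak coverage at these starts changed when AGO2 was depleted. From read counts, the paper reports that some genes up-regulated after AGO2 depletion gained Pol II S5 and that some down-regulated genes lost it. The covered share of lists not scaled to one another is a different measure and does not test that result. In both AGO2 KD libraries the mean gap coverage, the mean start coverage and the share of symmetric pairs lay below both mock libraries. The mean covered share of the gap was 69.7 ± 2.13% in mock and 60.6 ± 3.75% under AGO2 KD (SD, n = 2 each), a difference of -9.07 points. For the start windows it was 58.5 ± 5.12% and 47.0 ± 8.33%, a difference of -11.5 points. The share of symmetric pairs was 41.5 ± 7.95% and 26.0 ± 10.5%, a difference of -15.5 points, and that of one-sided pairs 34.2 ± 3.41% and 38.2 ± 0.252%, a difference of 4.01 points. Each of these had p = 0.333 in an exact two-sided permutation test, the smallest that 2 libraries against 2 allow, and 0.667 after Benjamini-Hochberg adjustment over 8 comparisons, so that the design could not reach 0.05. Without AGO2 KD replicate 1 the differences in start coverage and symmetric share were -5.56 and -8.12 points, without AGO2 KD replicate 2 they were -17.3 and -22.9 points, and without mock replicate 2 the latter was -9.90 points. AGO2 KD replicate 1 and mock replicate 2 are the ends of the range, and AGO2 KD replicate 2 was near mock replicate 1 in the start windows (52.9% and 54.9%).

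Counted pair by pair, 682 of the 1682 pairs (40.5%) had a lower covered share of the whole pair window (gap and both start windows) in both AGO2 KD libraries than in both mock libraries, and 5 (0.297%) a higher one. Over the first 1 kb of all 13968 protein-coding genes 18.0% were lower and 0.279% higher by the same count, and over the pair genes 25.9% and 0.327%. Among genes with a peak in any library 31.7% of the pair genes and 34.4% of all genes were lower. The whole windows of wide pairs were lower in 37.5% and higher in 0.583%. Among pairs with a peak in any library, 46.2% of the divergent and 55.5% of the wide ones were lower, so that the order of both kinds of pair turned with this restriction. With lists cut to equal covered length, the differences in gap and start coverage turned to 9.04 and 4.51 points, that in the symmetric share shrank to -1.75 points, and the counts turned to 239 lower and 100 higher. Leaving out a single library removes a condition, so that the counts can then only stay or rise. The lower pairs numbered 1232 without AGO2 KD replicate 2 and 1054 without mock replicate 1. The higher pairs numbered 140 without AGO2 KD replicate 1 and 78 without mock replicate 2.

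Of 581 pairs symmetric in both mock libraries, 293 were symmetric in both AGO2 KD libraries, 69 one-sided in both and 3 uncovered in both. No pair that was one-sided in both mock libraries (411 pairs) or had neither window covered there (344 pairs) was symmetric in both AGO2 KD libraries. The AGO2 KD lists covered 5.57 and 8.01 Mb of the genome, against 8.27 and 10.5 Mb in mock. Such changes of state were not counted in wide pairs or other genes, so whether they are particular to divergent pairs was not tested. In 66 of the 69 the same gene was kept in both AGO2 KD libraries, and where both genes reached 1 kb the longer gene was kept in 26 of 54. The 4 with the largest loss of covered share were Ctf4/CG8067, Tsf2/CG34242, CG9393/Vps45 and CG5885/CG4598. In none of them was the highest fold of a touching peak under AGO2 KD below both mock values. In the same order this fold was 3.14 and 3.01, 2.90 and 3.29, 3.36 and 3.16, and 5.13 and 5.02 in mock. Under AGO2 KD it was 4.95 and 3.19, 3.17 and 3.75, 4.40 and 3.53, and 5.36 and 7.13. Over all peaks touching divergent pairs, the median fold was 3.68 and 3.67 in mock and 4.05 and 3.63 under AGO2 KD. Their median width was 1868 and 2310.5 bp in mock and 1272 and 1746 bp under AGO2 KD. Whether the folds at these 4 pairs go with narrower peaks was not tested. The CG8067 window was covered at 100% in both mock libraries and 0% in both AGO2 KD ones, and its shares under LaminB KD were 100% and 0%, while Ctf4, a replication fork protein, stayed at 100% in mock and AGO2 KD. In Tsf2/CG34242 both the gap and the CG34242 window went from 100% in the mock libraries to 0% in the AGO2 KD libraries, and Tsf2, a transferrin of cell junctions, from 100% to 55.9% and 56.3%. Vps45, a regulator of vesicle fusion, was covered at 96.2% and 92.8% in mock and at 0% under AGO2 KD, and its partner CG9393 at 100% in mock and at 76.8% and 84.2% under AGO2 KD. CG4598 was covered at 86.1% and 100% in mock and at 0% under AGO2 KD, and CG5885 at 100%, 100%, 96.4% and 100%. In LaminB KD replicate 2 the 4 lost windows were also at 0%, and in LaminB KD replicate 1 at 100%.

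**Figure D5:**
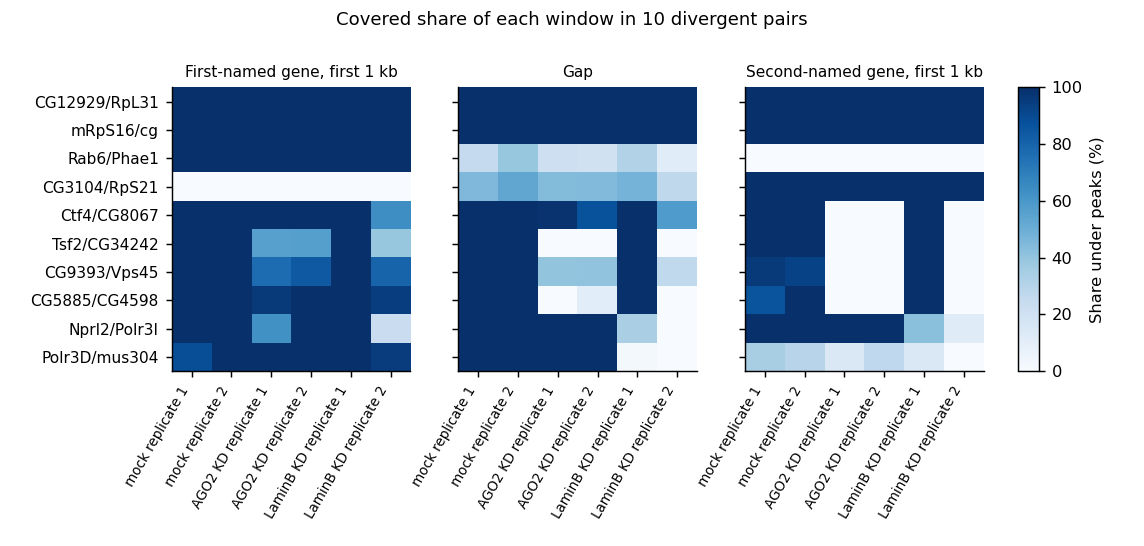
Share under peaks (colour, 0% to 100%) of the first-named gene's window, the gap and the second-named gene's window in 10 divergent pairs (rows) and 6 libraries (columns). RpL31 and cg pairs are covered throughout, Rab6 and RpS21 pairs on 1 side, and the next 4 pairs lose the second-named window in 3 libraries, namely the AGO2 KD replicates and LaminB KD replicate 2.

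Further pairs named for their distance between the groups were CG10376/CG10343 and SAK/Cdk12. The CG10343 window was covered at 100% in mock and 0% under AGO2 KD, and CG10376 at 100% in mock and 49.7% and 61.4% under AGO2 KD. Cdk12, whose product is a kinase of the C-terminal repeats of polymerase, was covered at 100% in both mock libraries and at 21.6% and 18.9% under AGO2 KD, and SAK (the centriole kinase Plk4) at 88.4% and 86.6% in mock and 0% and 73.3% under AGO2 KD. The 5 higher pairs differed by little. In CG10669/CG11902, whose starts are 14 bp apart, 23.4% and 27.3% of the window were covered in mock and 34.9% and 37.0% under AGO2 KD. In heix/CG17328 (heix encodes a prenyltransferase) it was 38.1% and 39.4%, and 44.4% and 43.5%. For CG6066/CG5880, DAAM/fs(1)N (DAAM is a formin) and mura/RnpS1 (RnpS1 is a splicing factor), the last named only because it completes the 5, the groups were less than 1 point apart, by 0.835, 0.558 and 0.0449 points.

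Knock-down of LaminB was compared with mock treatment in the same way. The LaminB KD replicates stood on either side of all other libraries, with replicate 1 the highest and replicate 2 the lowest of the 6 in the gap, the start windows and the symmetric share. The gap was covered at 58.3 ± 22.9% (SD, n = 2), a difference from mock of -11.4 points (p = 1, exact two-sided permutation test), and the start windows at 51.4 ± 26.8%, a difference of -7.12 points (p = 1, exact test). Symmetric pairs made up 35.5 ± 33.8% (-6.06 points, p = 1, exact test) and one-sided pairs 29.5 ± 6.89% (-4.67 points, p = 0.667, exact test), and all 4 were at 1 after adjustment over 8 comparisons. Without replicate 2 the gap, the start windows and the symmetric share were above mock by 4.84, 11.8 and 17.9 points.

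In both LaminB KD libraries 45 pairs (2.68%) were lower than in both mock libraries and 6 (0.357%) higher, against 1.72% and 0.158% of all genes over the first 1 kb and 4.66% and 0.117% of the whole windows of wide pairs. Leaving a library out removes a condition, so that these counts can then only stay or rise. Without replicate 1 of LaminB KD the count of lower pairs was 1342, and without replicate 2 the count of higher pairs was 892. The size of both counts thus rests on which replicate is used. Without mock replicate 1 the lower pairs numbered 185, and without mock replicate 2 there were 75 lower and 37 higher ones. The largest distance was that of Nprl2/Polr3I (Nprl2 belongs to a complex that restrains TOR signalling, and Polr3I to RNA polymerase III). Its gap was covered at 100% in both mock and both AGO2 KD libraries and at 34.0% and 0% under LaminB KD, and the Polr3I window at 100% in those 4 and at 41.8% and 12.1% under LaminB KD. A second pair with a polymerase III subunit, Polr3D/mus304, had 100% of its gap covered in the mock and AGO2 KD libraries and 1.67% and 0% under LaminB KD, while Polr3D itself was covered at 88.3% and 100% in mock and at 100% and 95% under LaminB KD. The mus304 window (the fly counterpart of ATRIP) was covered at 34.0% and 29.6% in mock, 14.6% and 26.9% under AGO2 KD, and 14.8% and 0% under LaminB KD. In CG5498/fbl the window of fbl, a pantothenate kinase, went from 100% in mock to 49.1% and 41.4% under LaminB KD and was also at 41.3% and 39.7% under AGO2 KD. In sel/magu the distance was 11.1 points.

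The higher pairs lay close to mock. For wts/dj-1beta (wts is the kinase Warts of the Hippo pathway) the window was covered at 64.8% and 67.4% in mock and 87.6% and 70.1% under LaminB KD, and for RNaseZ/CG12909 at 70.2% and 70.4%, and 94.9% and 71.7%. The distances between the groups were 2.76 and 1.29 points, 1.19 points for CG2887/PPP4R2r and 0.611 points for Lcp9/CG3594. A single pair, CG13630/tok, was symmetric in both mock libraries and one-sided in both LaminB KD libraries. There tok, a secreted metalloprotease, was covered at 54.6% and 50.0% in mock and at 47.9% and 0% under LaminB KD. Of the 581 pairs symmetric in both mock libraries 192 were symmetric in both LaminB KD libraries, and of the 344 without a covered window there 262 stayed so. These changes of state were likewise not counted in wide pairs or other genes.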

How the data were processed

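Pol II S5 regions of 6 immunoprecipitated libraries of Kc167 cells (3 groups of 2 replicates) were analysed, and the 6 inputs only entered through them. The authors trimmed reads with cutadapt, aligned them to dm6 with Bowtie2, discarded multimapping reads and, with Picard, duplicates, and called broad regions with MACS2 2.1.1.20160309 for each replicate against its paired input. The deposited score, the deposited fold (a ratio to the local background) and the −log10 p-value and q-value are those of the peak caller. Lists were called separately and are not scaled to one another, so that a deeper library or a cleaner immunoprecipitation gives wider coverage. Read counts and depth are unknown, and the precision of a value is limited by the number of libraries. The authors' DiffBind test needs read counts and was not run. A pooled set of regions was not used here.

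Pairs were found in the Ensembl BDGP6.54 annotation, release 115, whose genome is dm6 (0 peaks and 0 genes ended beyond a chromosome). Ties between genes with identical coordinates kept 1 gene, and 89 genes that share a start with a pair gene were left out of the other genes. Covered shares were computed with Python 3.11.15, numpy 2.4.6 and pandas 2.3.3, and the search for pairs and the calls were tested on simulated data. Promoters (300 bp) and gaps were read from the RefSeq genome of the same assembly at Ensembl starts. Comparisons used exact two-sided permutation over libraries with Benjamini-Hochberg adjustment over 8 comparisons with mock and 3 within libraries. All libraries measured the same set of pairs, and p-values measure only the spread between these libraries. Alternatives were other windows, limits, distances and lists cut to one size, each replicate left out, and a replicate block.

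Pairs were named by rule: the 4 with the highest fold, 6 of the most one-sided in all libraries (the first in genome order of 9 tied pairs), for each knock-down the 4 higher and 4 lower with the largest distance between the groups and up to 4 that changed from symmetric to one-sided or back, and the most and least covered pair of each gene group. Other names were chosen after their values were seen. Pairs, lists and tests were chosen with earlier results of these data known.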

Additional observations from a re-analysis of the deposited data

How the results depend on the processing

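Of 228 alternative values 164 kept the direction and the side of the threshold, or stayed within 1.5 times a count. With lists cut to equal covered length the differences from mock were 9.04 (gap, AGO2 KD), 2.36 (gap, LaminB KD), 4.51 (start windows, AGO2 KD), 1.59 (start windows, LaminB KD) and 7.02 points (one-sided share, LaminB KD), and 100 pairs were higher and 239 lower in AGO2 KD, 28 and 128 in LaminB KD. The share of symmetric pairs in AGO2 KD stayed below mock under all 16 alternatives, with differences of -22.9 to -1.75 points. The one-sided share differed by -2.41 points in AGO2 KD with windows called at 80%, and in LaminB KD by 1.69 points with 500 bp windows and 3.86 points from 1 covered base. The longer gene was covered in 1.41 points more than 50% with 500 bp windows and in 4.30 points more from 1 base. The causes of these changes were not tested.

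Counts of pairs that were higher in AGO2 KD were 10 with equal peak numbers, 3 at −log10 q of at least 3, 8 with starts up to 1000 bp apart, and 0 where the groups had to lie 10 points apart, which left 236 lower. With starts up to 250 bp apart, which gives fewer pairs, 346 were lower in AGO2 KD, 2 higher and 20 lower in LaminB KD. The LaminB KD counts were 10 higher with equal peak numbers, 0 higher at −log10 q of at least 3, 72 lower with starts up to 1000 bp apart, and 0 higher and 4 lower with groups 10 points apart.

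Leaving out 1 replicate moved the AGO2 KD differences between -11.7 and -6.41 points (gap), -17.3 and -5.56 points (start windows), -22.9 and -8.12 points (symmetric share) and 1.61 and 6.42 points (one-sided share), and the LaminB KD differences between -27.6 and 4.84 points (gap), -26.1 and 11.8 points (start windows), -29.99 and 17.9 points (symmetric share) and -9.54 and 0.208 points (one-sided share). The counts, which can only stay or rise when a replicate is left out, ran from 8 to 140 higher and 713 to 1232 lower in AGO2 KD. In LaminB KD they ran from 6 to 892 higher and 45 to 1342 lower. Over all alternatives the difference of pair genes from other genes ran from 13.4 points (equal covered length) to 35.2, and that of divergent from wide pairs from 9.01 to 27.8. Without 1 replicate they were at 28.1 to 32.3 points (pair genes minus other genes), 12.9 to 17.1 points (divergent minus wide pairs) and -5.34 to -4.54 points (longer gene minus 50%), with p at 0.0625, the smallest that 5 libraries allow in the exact permutation test.

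The same replicate number did not pair the libraries by any label. With the replicate number as a block, 17 pairs were higher in AGO2 KD and 74 lower in LaminB KD, and no other result changed by over 1.5 times. The AGO2 KD differences then had p = 0.5 in the exact sign-flip permutation test, the smallest that 2 pairs allow. Those of LaminB KD had larger p-values in this test. Deviations of same-numbered libraries correlated at 0.160 for AGO2 KD and -0.340 for LaminB KD over the 1682 pairs. With crossed numbers, chosen after seeing the data, 29 pairs were higher and 177 lower in LaminB KD.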
